A study of Arabidopsis thaliana with 8 samples.

Results

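A group of 83 array spots gave a signal on all 4 root arrays of Arabidopsis thaliana and were listed at exactly 0 on 3 or 4 of the 4 leaf arrays. They were selected on the deposited spot intensities of both tissues, as the spots at 0 on 3 or 4 leaf arrays, above 0 on all root arrays and annotated to 1 or more genes. The contrast of root with leaf was therefore fixed by the choice of members, and it is described here with no test. Of the 83, 44 carried exactly 1 gene and 39 were shared by several similar genes, and together they named 128 genes. Signal on a shared spot cannot be assigned to 1 of its genes.

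The plants were wild type, of the Columbia 0 ecotype, with 4 arrays of leaf RNA and 4 of root RNA, and no other treatment or genotype is given by the labels. Each array held 3439 spots, of which 692 carried 1 gene, 870 carried several and 1877 are not named here. Intensities were relative, with values up to 100, and summed to between 3021 and 3426 on the leaf arrays and between 2868 and 3505 on the root arrays. Values of 0 made up 20.03% to 22.80% of a leaf array and 12.8% to 15.1% of a root array. Replicates 1 and 2 of each tissue were close to each other across spots (r = 0.999 in leaf and 0.997 in root), as were replicates 3 and 4 (0.998 and 0.996), while correlations between these pairs were 0.970 to 0.975 in leaf and 0.865 to 0.872 in root. These are Pearson correlations of the untransformed intensities, on which the brightest spots weigh most, so they say little about dim spots. Whether arrays of a pair share an RNA extract is not given, so the spread over 4 arrays may be partly technical. Of 8 leaf marker genes, 7 had a spot. Those of LHB1B2, PSAN, PSBY and PRK were brighter on every leaf array than on any root array, and LHB1B2, a light-harvesting antenna protein, read 19.3 to 25.1 in leaf and 0.323 to 0.680 in root. The others went against the leaf label or gave no order. PSBW, a photosystem II subunit, was brighter in root, and SBPASE was at 0 on every array. Both spots of RCA are shared with AT1G73110. On the brighter one every root array (0.294 to 0.415) exceeded every leaf array (0.0851 to 0.277). The dimmer one read 0 to 0.0585 in root and 0 to 0.0200 in leaf. None of 10 root marker genes had a spot, so the root label could not be checked in this way.

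Roots take up water and minerals and live on sugar sent from the leaves, which their mitochondria respire. Their plastids do not photosynthesise, but they house amino acid synthesis, fatty acid synthesis and redox enzymes. Growing root cells also remodel their walls with glycosylated proteins, pectin enzymes and secreted peroxidases.

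The rule was met by 184 of all 3439 spots (5.35%), by 83 of 1562 annotated spots (5.31%) and by 101 of 1877 spots with no gene name (5.38%). Among spots with 1 gene the share was 6.36%, and among shared spots it was 4.48%. The mirrored rule, at 0 on 3 or 4 root arrays and above 0 on all leaf arrays, was met by 13 spots (0.378%), of which 7 were annotated (0.448% of annotated spots). The root arrays also held fewer values of 0 over all spots, and the part of that difference in these counts was not tested. Of the 230 annotated spots at 0 on 3 or 4 leaf arrays, 96 were at 0 on every root array, 28, 11 and 12 were above 0 on 1, 2 or 3 root arrays, and 83 on all 4. In whole tissues, fewer cells that express a gene and less RNA per cell cannot be told apart.

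On 36 of the 83 spots all 4 leaf arrays were at 0, 18 with 1 gene and 18 shared. On the other 47 exactly 1 leaf array gave a reading, which lay between 0.000848 and 0.352 with a median of 0.0407. That reading came from leaf replicate 1 on 6 spots, replicate 2 on 14, replicate 3 on 18 and replicate 4 on 9. The tissues did not overlap on 69 spots, 41 of them with 1 gene, a count that the rule itself makes likely. Over all 3439 spots, every root array exceeded every leaf array on 34.3%, and every leaf array exceeded every root array on 15.0%. On 14 spots, 3 with 1 gene and 11 shared, the leaf reading reached at least the lowest root array. On 7 of these it exceeded the root mean.

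Most members were dim in root. Their root means ran from 0.0247 to 5.46 with a median of 0.144, against a median of 0.296 for all spots. On all 4 root arrays, 12 members lay above the array median and 55 lay below it. The median root intensity of the members stood at the 31.1, 33.2, 28.1 and 28.9 percentile of root replicates 1 to 4. Intensities of different spots depend on the probe, so their order does not rank transcripts.

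The brightest member in root was AT4G15790. Its 4 leaf arrays were at 0 and its root arrays read 9.05, 8.97, 1.72 and 2.09, a mean of 5.46 ± 4.11 (SD, n = 4 arrays). Replicates 1 and 2 stood well above replicates 3 and 4, so that the SD is mostly the gap between these pairs. Its spot was the only single-gene member with a root mean above 1.

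**Figure D1:**
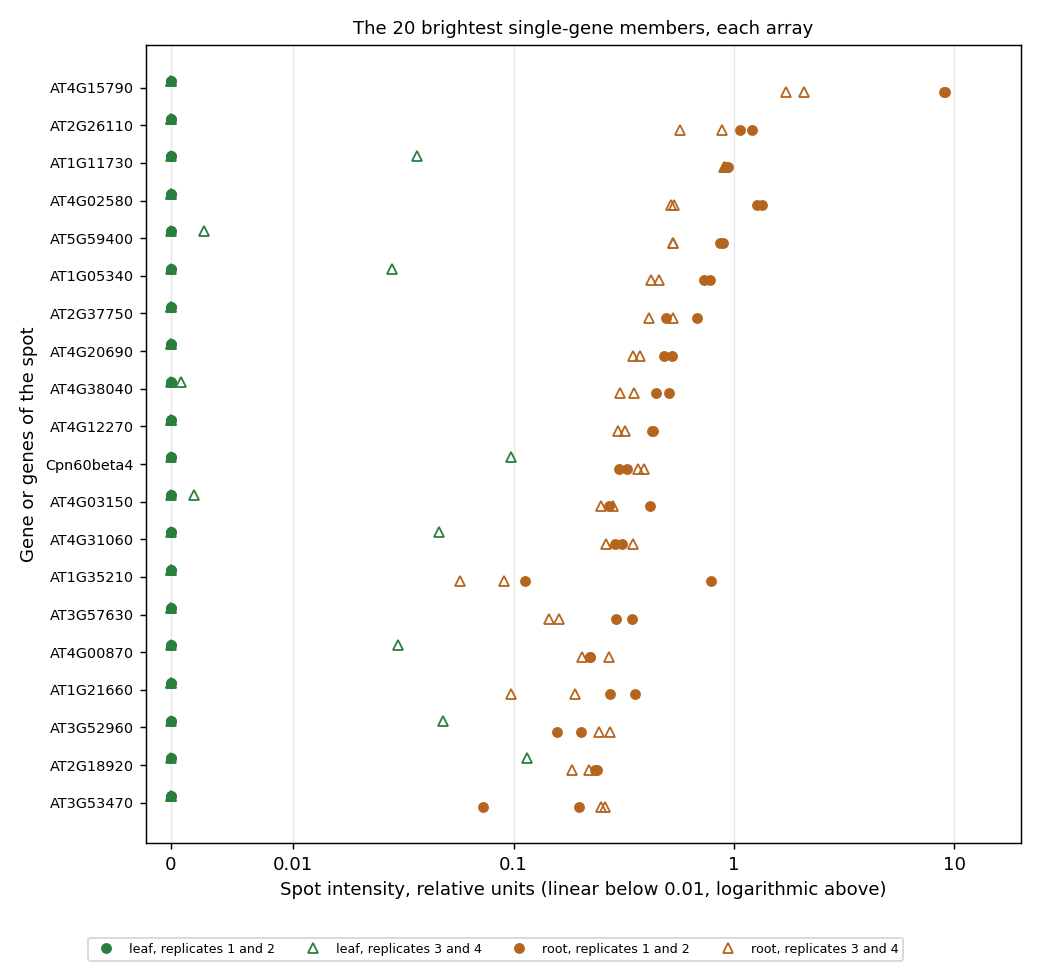
Spot intensity on each leaf (green) and root (brown) array for the 20 single-gene members with the highest root mean; circles are replicates 1 and 2, triangles replicates 3 and 4, and the axis is linear below 0.01 and logarithmic above. All leaf arrays sit at 0 for 10 of the 20 genes and 3 of 4 do for the other 10, while AT4G15790 spreads from 1.72 to 9.05 in root.

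Members are grouped by role below. Roles were not counted over all annotated spots, so the counts do not show whether a role was more frequent among the members. Mitochondrial and central metabolism was represented by 3 members. AT4G02580 encodes a subunit of mitochondrial complex I, which takes electrons from NADH. Its intensity was 1.34, 1.28, 0.519 and 0.535 on root replicates 1 to 4 and 0 throughout leaf (mean 0.919 ± 0.454, SD, n = 4). Replicates 1 and 2 were again the higher ones. A spot shared by AT5G55070 and AT4G26910, which encode the succinyltransferase component of the 2-oxoglutarate dehydrogenase complex of the citric acid cycle, read 0.191, 0.104, 0.159 and 0.102 in root with every leaf array at 0. A spot shared by TO1 and TO2, the o-type thioredoxins, was dimmer, with a root mean of 0.0890 ± 0.0344 and a leaf reading of 0.0407 on replicate 3.

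Cell wall and glycosylation genes held 6 members, 3 with 1 gene, with root means from 0.202 to 0.919. AT1G11730, of the galactosyltransferase family, read 0.922, 0.943, 0.903 and 0.910 in root, and leaf replicate 3 read 0.0364 with the other leaf arrays at 0. Its coefficient of variation over root arrays was the lowest of the members as deposited, at 1.89%, but was 9.22% to 13.4% with the arrays scaled, where AT4G12270 had the lowest. AT4G38040, of the exostosin family of glycosyltransferases, read 0.509, 0.441, 0.352 and 0.305 in root and 0.000848 on leaf replicate 4, with 0 on the rest. AT3G57630, which encodes the arabinosyltransferase ExAD that extends sugar chains on extensins of the wall, was at 0 in leaf and read 0.344, 0.291, 0.160 and 0.145 in root. For AT4G38040 and AT3G57630, replicates 1 and 2 exceeded replicates 3 and 4.

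The shared spots of this group carried wall enzymes. GH9B14 and GH9B15, endoglucanase-type glycosyl hydrolases, shared a spot at 0 on all leaf arrays that read 0.623, 0.487, 0.189 and 0.274 in root. PME61 and ATPMEPCRD, pectin methylesterase genes, shared a spot that read 0.260, 0.244, 0.141 and 0.163 in root and 0.0627 on leaf replicate 2. On both spots replicates 1 and 2 were the brighter root arrays. AT4G31760 and AT2G24800, class III peroxidase genes of the secreted kind, shared a spot that read 0.130, 0.211, 0.330 and 0.249 in root. Its leaf replicate 4 read 0.217, above root replicates 1 and 2, so the tissues overlapped there.

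Plastid proteins formed 9 members, 5 with 1 gene, with root means from 0.0345 to 0.347. Leaf was at 0 on all 4 arrays on 1 of the 9 spots. Cpn60beta4, a plastid chaperonin subunit known for folding a subunit of the NDH complex, read 0.301, 0.328, 0.390 and 0.369 in root, and 0.0977 on leaf replicate 3. All root arrays exceeded that leaf reading, and here replicates 3 and 4 were the higher root arrays. AT3G52960, the plastid peroxiredoxin that removes peroxides, read 0.203, 0.158, 0.245 and 0.273 in root and 0.0477 on leaf replicate 4. AT5G19940, of the fibrillin family of plastid lipid-associated proteins, had a root mean of 0.125 ± 0.0343 (SD, n = 4). LPA19 is an assembly factor of photosystem II, the leaf complex that splits water, and CHL is a chloroplast lipocalin. Their root means were 0.0889 ± 0.0513 and 0.0640 ± 0.0330, with single leaf readings of 0.0664 and 0.0299. For LPA19 the leaf reading exceeded root replicate 3, at 0.0328.

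The shared plastid spots were dim. AT3G57280, the fatty acid exporter FAX1, shared a spot with AT2G38550 that was at 0 on all leaf arrays and had a root mean of 0.115 ± 0.0169. A further spot of AT2G38550 alone read 2.68, 2.28, 1.61 and 1.91 in leaf and 3.05, 3.10, 1.92 and 1.86 in root. The tissues overlapped there, so the member spot does not show that AT2G38550 was silent in leaf. AT4G25370 and AT4G12060, ClpT subunits of the plastid protease, shared a spot with a root mean of 0.0697 ± 0.0347. AT1G20810 and AT3G10060, FKBP-type isomerases, had 0.0629 ± 0.0268, and AT4G17740 and AT3G57680, C-terminal processing proteases, had 0.0345 ± 0.0189. The ClpT and processing protease spots overlapped with 1 leaf reading each.

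Amino acid metabolism had 3 members, each with 1 leaf array above 0. AT-HF, also called HISN4, is an enzyme of histidine synthesis and read 0.114, 0.0384, 0.0354 and 0.0788 in root against 0.0255 on leaf replicate 2. HISN5B and IGPD, genes of the dehydratase of the same pathway, shared a spot that read 0.134, 0.124, 0.231 and 0.183 in root. Leaf replicate 3 read 0.199 there, above 3 of the root arrays. The spot of LCD, an L-cysteine desulfhydrase, and AT5G26600 read 0.196, 0.188, 0.226 and 0.208 in root and 0.0775 on leaf replicate 2.

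Transcription factors contributed AT4G31060, of the AP2/ERF family, and AT4G00870, the bHLH protein bHLH14 of jasmonate signalling. AT4G31060 read 0.310, 0.288, 0.262 and 0.350 in root and 0.0460 on leaf replicate 4. AT4G00870 read 0.222, 0.223, 0.205 and 0.272 in root and 0.0300 on leaf replicate 4. For both, root replicate 4 was the brightest array, all root arrays exceeded the leaf reading, and the coefficient of variation over root arrays was 12.4% and 12.6% as deposited (17.3% and 19.1% with arrays scaled to a common mean).

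Stress and defence genes had 3 members. AT1G05340 encodes a small cysteine-rich transmembrane protein of stress tolerance and read 0.779, 0.730, 0.421 and 0.459 in root against 0.0280 on leaf replicate 3. The thaumatin-like genes AT2G24810 and AT2G28790 had root means of 0.0601 ± 0.0224 and 0.0256 ± 0.0165, close to the low end of all members. AT2G28790 was at 0 on all leaf arrays, and its root replicate 1 read 0.00148.

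Repeat and chaperone-type proteins gave 6 single-gene members. AT1G21660, with a DnaJ domain as in auxilin, read 0.274, 0.357, 0.0976 and 0.189 in root and 0 in leaf. The pentatricopeptide repeat genes AT1G31790, AT1G79080 and AT3G49740, a family that mostly acts on organelle RNA, had root means of 0.168 ± 0.0290, 0.139 ± 0.112 and 0.0857 ± 0.0367. AT1G79080 read 0.172, 0.282, 0.0341 and 0.0697, and its mean was 0.0920 without root replicate 2. The tetratricopeptide-type genes AT3G09490 and AT5G53080 had 0.139 ± 0.0724 and 0.122 ± 0.0137. AT5G53080 read 0.109 to 0.142 in root, but leaf replicate 4 read 0.118, within that range.

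Kinase and ubiquitin genes had 5 members, 4 of them shared. The receptor-like kinase genes AT1G69790 and AT1G26970 shared a spot at 0 in leaf that read 0.420, 0.339, 0.217 and 0.241 in root. AT2G27630, a ubiquitin hydrolase-related gene, was the single-gene member with the largest leaf reading. Its leaf replicate 1 read 0.352, above every root array, which read 0.0457, 0.0413, 0.1001 and 0.0269, while the other leaf arrays were at 0. The spots of the kinase genes AT3G26700 and AT3G21450, of the kelch F-box genes AT4G19870 and AT4G19865 and of the RING genes AT3G61550 and AT2G46160 had root means of 0.126, 0.104 and 0.0432.

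Other enzymes had 9 members, 4 with 1 gene. AT4G12270, of the copper amine oxidase family, was at 0 in leaf and read 0.427, 0.429, 0.297 and 0.322 in root. MMP and AT1G24140, genes of matrix metalloproteinases that cleave extracellular proteins, shared a spot at 0 in leaf that read 0.537, 0.369, 0.233 and 0.180 in root. For both, replicates 1 and 2 were the higher root arrays. AT1G02020, of the nitroreductase family, was at 0 in leaf and went the other way, at 0.0471 and 0.0748 on root replicates 1 and 2 and 0.241 and 0.227 on replicates 3 and 4. AT2G03140, of a CAAX protease family, and AT4G31210, a type IA topoisomerase, had root means of 0.110 ± 0.0518 and 0.0875 ± 0.0364. The spot of AT1G72880 and AT4G14930, SurE-type phosphatases, had a root mean of 0.0629, and 0.0360 without root replicate 2. Apart from these enzymes, meiosis was a role group with 1 shared member. This spot of ZYP1a and ZYP1b, which encode the transverse filament of the synaptonemal complex, read 0.0279 to 0.0605 in root and 0.0499 on leaf replicate 2.

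**Figure D2:**
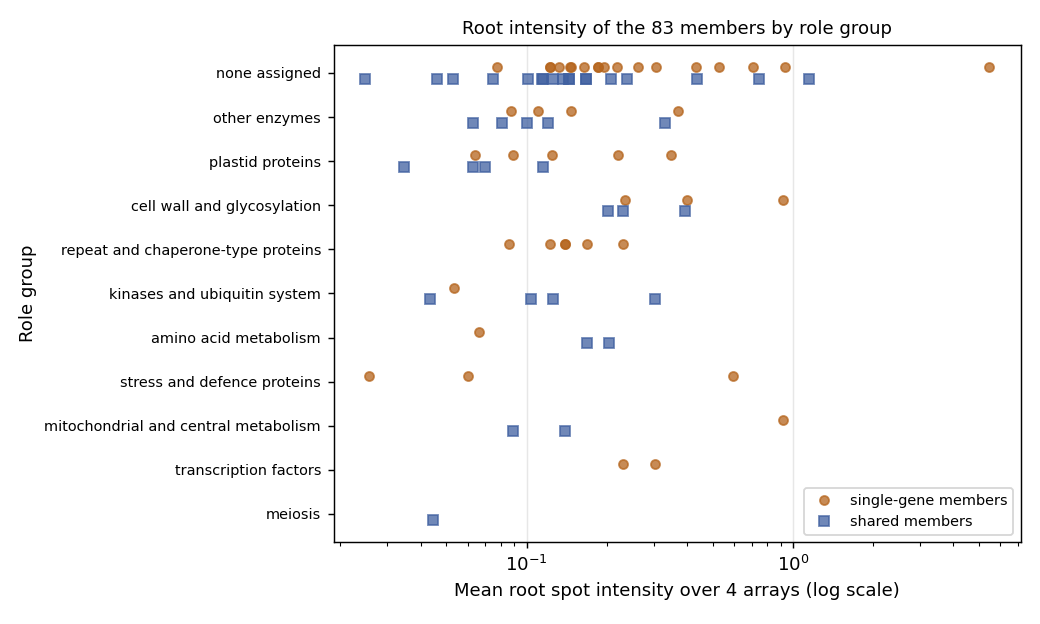
Mean root intensity over 4 arrays (log axis) of each of the 83 members, by role group, with single-gene members as circles and shared members as squares. Wall and glycosylation members lie between 0.202 and 0.919, plastid members between 0.0345 and 0.347, and 36 members have no assigned role.

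No role was assigned to 18 single-gene and 18 shared members, which include some of the brightest. AT2G26110 was at 0 in leaf and read 1.20, 1.07, 0.880 and 0.570 in root. AT5G59400 read 0.865, 0.896, 0.528 and 0.531 in root and 0.00274 on leaf replicate 3. AT2G37750 was at 0 in leaf and read 0.682, 0.494, 0.411 and 0.530 in root. On none of these spots did the tissues overlap. AT4G20690 was at 0 in leaf and read 0.524, 0.484, 0.350 and 0.374 in root. AT4G03150 read 0.417, 0.270, 0.250 and 0.284 in root and 0.00193 on leaf replicate 3. AT2G18920 read 0.233, 0.238, 0.220 and 0.184 in root and 0.115 on leaf replicate 3. Its leaf reading was the highest among the 20 brightest single-gene members, though still below every root array. AT3G53470 was at 0 in leaf and read 0.199, 0.0726, 0.260 and 0.251 in root.

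A single array set the mean of AT1G35210, which was at 0 in leaf. Root replicate 2 read 0.789, while replicates 1, 3 and 4 read 0.113, 0.0901 and 0.0573. AT3G56250 showed the same form, at 0.443 on root replicate 2 and 0.0178, 0.00792 and 0.0207 on the others. The median over root arrays was 0.101 for AT1G35210 and 0.0193 for AT3G56250, against means of 0.262 and 0.122. Without root replicate 2 the means were 0.0867 and 0.0155. Among the remaining genes with no assigned role, AT5G46560, AT1G65500, AT1G70180, AT5G40470, AT3G47980, AT3G56010, AT4G02040 and AT1G50770 had root means from 0.0778 (AT1G50770) to 0.186 (AT5G46560). For AT1G70180, leaf replicate 1 read 0.0970 and root replicate 3 read 0.0981, so the tissues nearly met.

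Among shared members with no assigned role, the spot of AT2G44260 and AT2G44230 was the brightest shared one. It was at 0 in leaf and read 1.51, 1.59, 0.731 and 0.778 in root. The spot of AT3G04890 and AT2G46100 was at 0 in leaf and read 0.965, 1.004, 0.556 and 0.454 in root. On both, replicates 1 and 2 were the higher arrays. The spot of AT1G45207 and AT4G36970 was at 0 in leaf and read 0.0529, 0.352, 0.554 and 0.782 in root, the reverse order of the pairs. The spot of AT1G33780, AT3G29240 and AT3G19780 was at 0 in leaf and read 0.231, 0.195, 0.257 and 0.266 in root. That of AT1G34380 and AT3G52050 was also at 0 in leaf and read 0.162, 0.242, 0.197 and 0.229 in root. The remaining 13 shared members with no assigned role had root means from 0.0247 to 0.168, and 6 of them were at 0 on every leaf array. Single arrays weighed heavily on 3 of them. The root mean of the AT4G32020 and AT2G25250 spot was 0.114, and 0.0714 without root replicate 1. That of the AT4G34930 and AT4G34920 spot was 0.0528, and 0.0309 without replicate 2. That of the AT1G60230 and AT3G19630 spot was 0.0247, and 0.0131 without replicate 1.

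**Figure D3:**
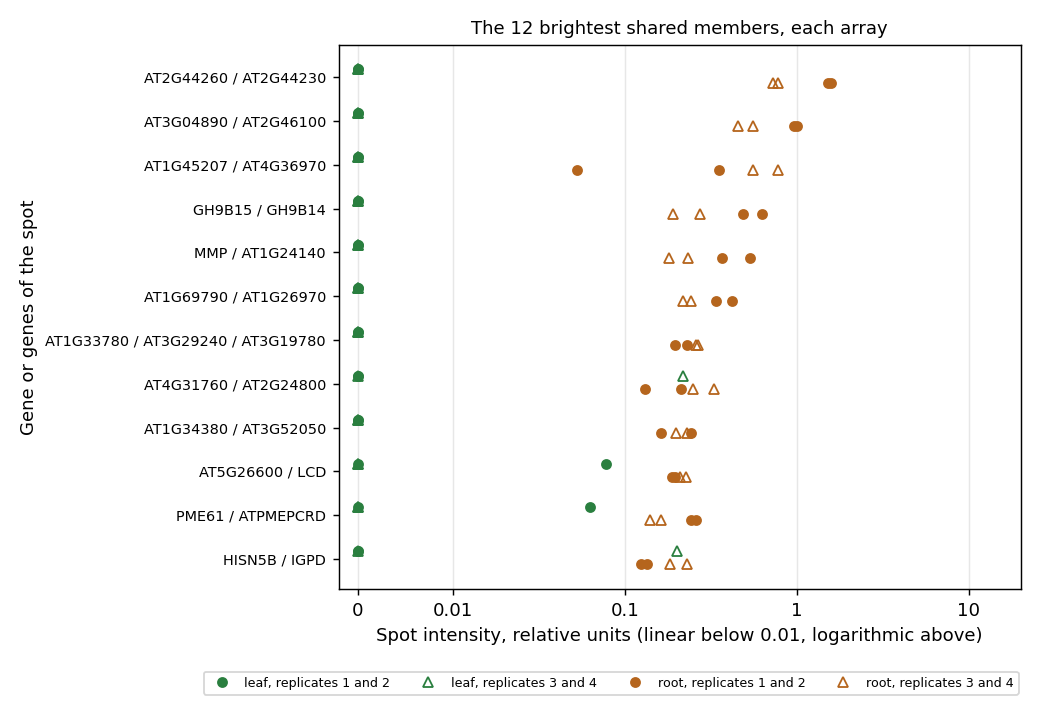
Spot intensity on each leaf (green) and root (brown) array for the 12 shared members with the highest root mean, with circles for replicates 1 and 2 and triangles for replicates 3 and 4; the axis is linear below 0.01 and logarithmic above. On 8 of the 12 spots every leaf array is at 0, and on the AT4G31760 / AT2G24800 and HISN5B / IGPD spots 1 leaf reading falls within the root values.

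Over the root arrays the coefficient of variation of the members had a median of 38.6% as deposited and ran from 1.89% to 175%. Among 676 spots that were not members and had root means between the quartiles of the members, 0.0946 and 0.236, the median was 30.0%. It was 24.2% among all 2733 other spots above 0 on every root array. The 38.6% covers all 83 members, including those dimmer or brighter than these quartiles, so the medians do not compare equal intensities. Replicates 1 and 2 both exceeded replicates 3 and 4 on 38 members (45.8%), and both lay below them on 14 (16.9%). Among the 676 spots between the quartiles these shares were 42.9% and 21.4%, so the members stood near those spots in this respect. The summed intensity of all spots was also higher on replicates 1 and 2, at 3479 and 3505 against 2868 and 2923.

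**Figure D4:**
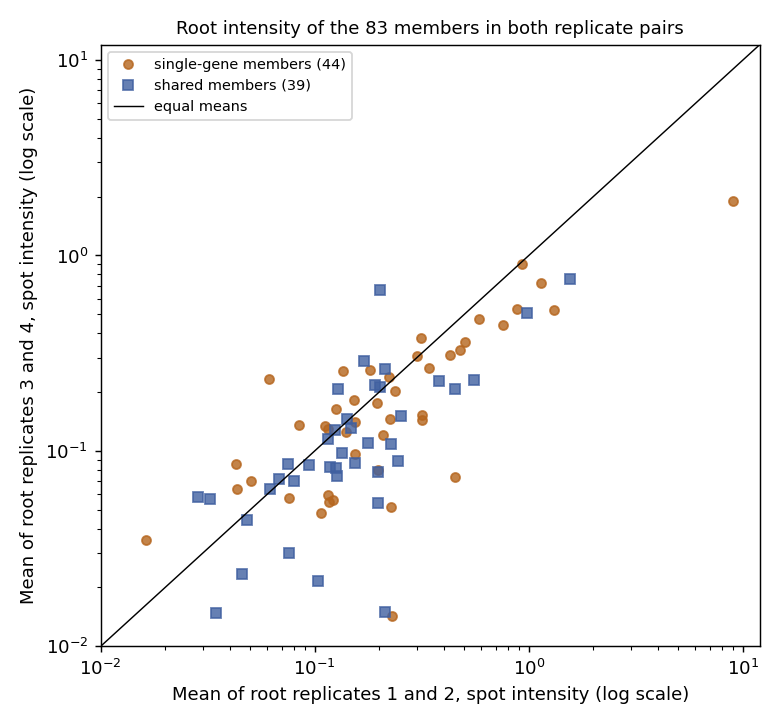
Mean intensity of root replicates 1 and 2 against that of replicates 3 and 4 for the 83 members on log axes, with single-gene members as circles, shared members as squares and a line for equal means. Both of replicates 1 and 2 exceeded both of replicates 3 and 4 on 38 members and lay below them on 14, and AT4G15790 stands at the far right.

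At the edge of the rule, the members with the lowest root reading were the spot of AT1G60230 and AT3G19630, at 0.000611 on root replicate 3, AT2G28790, at 0.00148, and AT3G56250, at 0.00792. Just outside were spots with 1 root array at 0. The brightest of these were the spot of AT3G26630 and AT2G42920, with a root mean of 0.123, AT1G08845, with 0.117, and the spot of AT4G34290 and AT2G14880, with 0.108. These means exceed those of many members.

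Genes of the members were also read on other spots, which the rule did not choose. No gene was carried by more than 1 member. A further spot carried a gene of 17 shared members and of 1 single-gene member, AT1G05340, and the other 43 single-gene members had no further spot. Leaf was above 0 on all 4 arrays on 12 of these 18 further spots and on at least 1 array on 17. Every root array exceeded every leaf array on 7 of the 18, every leaf array exceeded every root array on 3, and the tissues overlapped on 8. Over all spots the shares were 34.3% and 15.0%, so these counts do not set the further spots apart. On 11 further spots the genes were exactly those of the member, in each case a shared one. Leaf was above 0 on all 4 arrays on 7 of these and at 0 on all 4 on 1. A value of 0 on such a shared member therefore does not by itself show that its genes were unexpressed in leaf. For the 43 single-gene members with no further spot this could not be examined.

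Several further spots were brighter in root while giving a leaf signal. The further HISN5B and IGPD spot read 0.181, 0.111, 0.0709 and 0.378 in leaf and 1.74, 1.77, 1.65 and 1.63 in root, whereas the member spot had a root mean of 0.168. The spot that AT1G05340 shares with 4 other genes read 0.485, 0.442, 0.364 and 0.501 in leaf and 1.47, 1.40, 1.93 and 2.41 in root. On both, every root array exceeded every leaf array. The further spots of AT1G34380 and AT3G52050, of GH9B14 and GH9B15 and of AT4G32020 and AT2G25250 had root means of 0.874, 0.2995 and 1.496 against leaf means of 0.0663, 0.0508 and 0.409, likewise with no overlap.

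Others went the opposite way or gave nothing. The further TO1 and TO2 spot read 1.16, 1.05, 1.14 and 1.07 in leaf, and 0, 0, 0.297 and 0.0620 in root. A spot that AT1G20810 and AT3G10060 share with AT1G76405 read 0.944, 0.849, 0.584 and 0.588 in leaf and 0.374, 0.286, 0.171 and 0.172 in root, and the spot of AT1G13970 alone was also brighter on every leaf array. For TO1 and TO2, the member spot and the further spot carry the same genes and gave opposite orders of the tissues. The AT1G20810 and AT1G13970 spots carry different sets of genes from their members, so their opposite orders cannot be assigned to a gene. The further spot of AT1G69790 and AT1G26970 was at 0 on all 8 arrays, and that of AT3G04890 and AT2G46100 was at 0 on every root array. Both lie at spot numbers divisible by 6, where 72.9% of all values were 0, against 13.1% at other numbers. Among the members, 3 lay at such numbers.

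**Figure D5:**
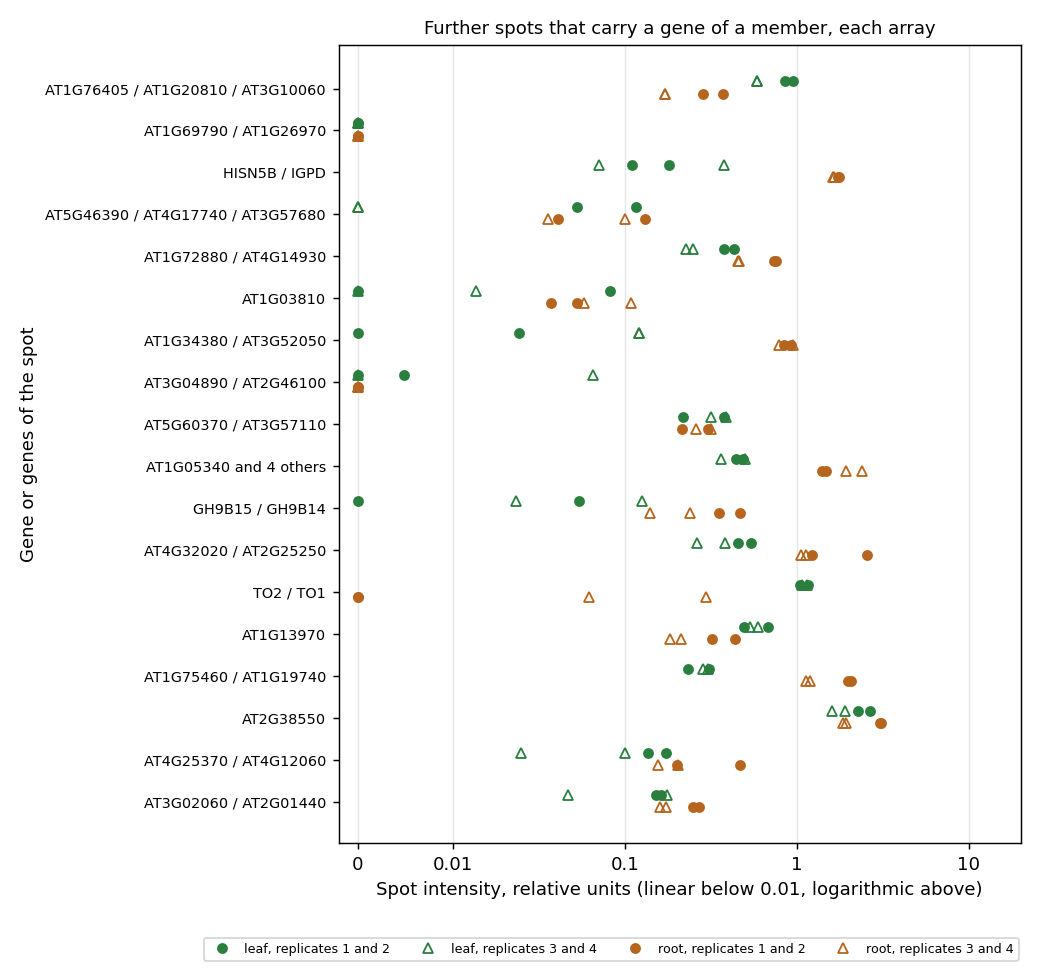
Spot intensity on each leaf (green) and root (brown) array for the 18 further spots that carry a gene of a member, with circles for replicates 1 and 2 and triangles for replicates 3 and 4; the axis is linear below 0.01 and logarithmic above. Leaf is above 0 on all 4 arrays on 12 of the 18, and TO2 / TO1 reads 1.05 to 1.16 in leaf with both root circles at 0.

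Neighbours among the 128 genes were counted only between different members, with no such count for other annotated spots. Of all pairs of loci on different members, 2 were immediate neighbours among protein-coding genes of the RefSeq table: AT4G26900 (AT-HF) with AT4G26910, on the succinyltransferase spot, and AT2G24800, on the peroxidase spot, with the thaumatin-like AT2G24810.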

How the data were processed

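The series holds 8 arrays, grouped and numbered by their titles. The deposited table gives an intensity for each spot on a linear, relative scale, and how the authors made these intensity values is not given in the sources used here. They were used as deposited, with no normalisation, background step or floor. Genes came from the platform annotation, joined by spot number, and all 44 single-gene members and all 84 genes of shared members matched a locus in RefSeq (assembly TAIR10.1), used for names and neighbours only.

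Members and lists were chosen with earlier results of these data known. All single-gene members are named, the 20 brightest with every root array, and the 12 brightest shared members likewise. Role groups rest on general knowledge of the genes and were assigned after the values were seen, because the RefSeq table held no descriptions for the planned word search. The planned description of promoters and proteins was not made, as no sequences were used here. No test was run, since the rule used the contrast. SDs are over 4 arrays, whose number limits the precision. Tools were Python 3.11.15, pandas 2.3.3, numpy 2.4.6 and matplotlib 3.10.9. Alternatives covered the leaf and root criteria, scaling, spot position, annotation and each array left out.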

Additional observations from a re-analysis of the deposited data

Results flagged for a closer look

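On 4 of the 56 members examined, 1 root array lay far from the other 3, or 7.14%. Over all 2816 spots above 0 on every root array the share was 5.54%, and among all 83 members 4.82%. For independent arrays chance gives about 1 in 20, but the root replicates agree in pairs. These were AT1G35210 on root replicate 2 (0.789), AT3G56250 on root replicate 2 (0.443), AT3G47980 on root replicate 3 (0.202) and AT3G56010 on root replicate 1 (0.154). The other root arrays of AT3G56010 read 0.124 to 0.125, so its gap was small in absolute size.

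A lone leaf reading with 3 leaf arrays at 0 stands apart in the same sense, and the rule admits such spots by construction. This held for 30 of the 56 members. On leaf replicate 1 the readings were 0.0970 for AT1G70180, 0.00367 for AT3G47980, 0.00182 for AT3G49740 and 0.352 for AT2G27630. On leaf replicate 2 they were 0.0116 for AT5G46560, 0.0627 for AT1G65500, 0.0175 for AT1G79080, 0.00443 for AT3G56250, 0.0664 for LPA19, 0.0190 for AT1G50770, 0.0255 for AT-HF, 0.0775 for the AT5G26600 and LCD spot and 0.0627 for the PME61 and ATPMEPCRD spot. On leaf replicate 3 they were 0.0364 for AT1G11730, 0.00274 for AT5G59400, 0.0280 for AT1G05340, 0.0977 for Cpn60beta4, 0.00193 for AT4G03150, 0.115 for AT2G18920, 0.0329 for AT5G19940, 0.00632 for AT4G31210, 0.0299 for CHL and 0.199 for the HISN5B and IGPD spot. On leaf replicate 4 they were 0.000848 for AT4G38040, 0.0460 for AT4G31060, 0.0300 for AT4G00870, 0.0477 for AT3G52960, 0.118 for AT5G53080, 0.0104 for AT2G24810 and 0.217 for the AT4G31760 and AT2G24800 spot.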

How the results depend on the processing

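The number of members depended most on the leaf criterion. It was 36 instead of 83 with leaf at 0 on all 4 arrays and 187 with 0 on 2, 3 or 4. Averaging replicates 1 and 2 and replicates 3 and 4, an alternative chosen after seeing the data, gave 40, of which 36 were members. With 1 leaf array left out the rule asks for 0 on 2 or 3 arrays, a looser demand by construction, and the count was 125 to 146. Without 1 root array the rule is also looser by construction, and the count was 84 to 87. Root criteria, quantile normalisation with a floor and leaving out spot numbers divisible by 6 gave 69 to 95. The median root intensity of 0.144 became 0.114 with a common array median, 0.0991 with quantile normalisation and 0.177 for single-gene spots, and it was 0.138 to 0.156 with 1 root array left out. The median coefficient of variation of 38.6% stayed between 32.8% and 44.3%. Of 249 root means of members recomputed under 3 scalings, 51 moved by more than the SD over arrays, 18 with a common array median and 33 with quantile normalisation. Leaving out 1 root array moved the root mean of 7 members by over 1.5 times, 5 without replicate 2 and 2 without replicate 1, with AT3G56250 falling from 0.122 to 0.0155. Leaf and root arrays were not paired, because the contrast of leaf with root was not tested. The titles do not say whether same-numbered leaf and root arrays belong together. How a value became 0 is not given. A value of 0 therefore does not by itself show that a transcript was below detection, nor how far below it lay.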
